A study of Mus musculus with 6 samples.

Results

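Transcripts of 10 transcription factors and co-activators that establish or maintain the trophectoderm were examined in blastocysts flushed from *Lif*-deficient and *Lif*-sufficient mouse uteri. The 10 genes were *Tead4*, *Yap1*, *Cdx2*, *Gata3*, *Eomes*, *Tfap2c*, *Tfap2a*, *Elf5*, *Hand1* and *Id2*. They were chosen by their known role in the lineage, with earlier results of these data already known. All 10 were found by symbol among the 23420 genes of the count tables. Blastocysts came from 3 groups of dams on day 4 of pregnancy, at 8 pm, when attachment is about to begin. Control dams were Lif-floxed/floxed and received PBS. *Lif* eKO dams were Lif-floxed/floxed Ltf-Cre/+, lacked *Lif* in the uterine epithelium through a Cre under the *Ltf* promoter, and also received PBS. Treated *Lif* eKO dams had the same genotype and received recombinant Lif (rLif, 20 µg per head) at 10 am and 6 pm, the second dose 2 h before dissection. Embryos of all 3 groups were labelled Lif-floxed/+, so that the dam, not the embryo, carried the deletion, and the uterine stroma of the dam kept its own *Lif*. In each group the flushed blastocysts were pooled into 1 library. Laser-dissected luminal layer of the uterus from the same 3 kinds of dams gave 3 further libraries, which serve here as the maternal background.

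The trophectoderm is the outer epithelium of the blastocyst, the part that meets the uterine wall and later forms the placenta. In outer cells of the morula the Hippo kinase pathway is inactive, which lets the co-activator Yap1 enter the nucleus, bind the DNA-binding factor Tead4 and switch on *Cdx2* and *Gata3*. Cdx2 holds down the pluripotency factor *Pou5f1*. Eomes, Tfap2c and Elf5 then sustain the trophoblast programme, and Hand1 drives differentiation to trophoblast giant cells.

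Promoter windows from RefSeq (build GRCm38.p6), reaching from 250 bases before to 50 bases after the annotated start of transcription, were found for 7 of the 10 genes and not for *Tfap2c*, *Tead4* and *Hand1*. The 7 genes had 9 windows, which were searched on both strands for short core motifs of factors within the set. GGAATG, bound by Tead factors, was present in 2 of the 9 windows and in 14.7% of all 32851 windows of the table. GCCNNNGGC, bound by Tfap2 factors and reading the same on both strands, was present in 3 of 9 and in 16.6% of all. AGATAA, bound by Gata factors, was present in 0 of 9 and in 11.2% of all. A match describes letters and not binding. The *Gata3* and *Yap1* windows are shown because they held most of the matches, and a window of *Elf5* because *Elf5* was one of the few members beyond the fold limit used below. Capitals mark the motifs, and only bases before the start and outside the gene's own annotated untranslated exons are printed. In *Gata3* (chr2:9878601-9878850, minus strand) the Tfap2 motif began 246, 231 and 221 bases before the start. In *Yap1* (chr9:8004597-8004846, minus strand) the Tead motif began 141 and the Tfap2 motif 105 bases before the start. The *Elf5* window belongs to the second of its 2 annotated starts (chr2:103423818-103424061, plus strand) and held none of the 3 motifs.
Gata3: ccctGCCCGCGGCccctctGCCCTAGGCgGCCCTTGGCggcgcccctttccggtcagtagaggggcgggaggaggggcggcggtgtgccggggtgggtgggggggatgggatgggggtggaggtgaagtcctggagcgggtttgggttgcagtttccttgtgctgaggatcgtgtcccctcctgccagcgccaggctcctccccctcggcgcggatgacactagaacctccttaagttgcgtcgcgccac
Yap1: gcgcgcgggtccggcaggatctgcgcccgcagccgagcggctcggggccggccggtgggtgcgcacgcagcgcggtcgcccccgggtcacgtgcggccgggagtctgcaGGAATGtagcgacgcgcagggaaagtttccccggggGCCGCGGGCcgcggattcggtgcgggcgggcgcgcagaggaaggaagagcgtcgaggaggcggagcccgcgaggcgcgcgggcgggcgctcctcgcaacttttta
Elf5, second start: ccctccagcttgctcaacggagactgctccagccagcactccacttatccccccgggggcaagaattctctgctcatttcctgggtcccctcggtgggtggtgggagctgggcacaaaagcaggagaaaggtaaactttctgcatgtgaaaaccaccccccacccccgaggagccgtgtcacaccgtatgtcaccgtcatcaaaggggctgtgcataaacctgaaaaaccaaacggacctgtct
The remaining matches were a Tfap2 motif 16 bases before the start of *Cdx2* and a Tead motif on the opposite strand 173 bases before the first start of *Elf5*. Both lay within exons that GENCODE M21 annotates as untranslated.

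Total counts were close to each other in the blastocyst libraries, from 18996158 to 19638852, and ran from 23850565 to 28460465 in the luminal libraries. With 1 library in each group no comparison had a replicate check. All intervals are 95% and cover the counting error of reads only, since 1 library per group gives no spread. PCR copies that carry no molecular identifiers were counted as separate reads, so the intervals can be too narrow even for that error. Library sizes were scaled within each tissue, so that levels of blastocysts and luminal layer are placed side by side but were normalized separately. In such bulk RNA, fewer cells of a type and less RNA per cell cannot be told apart. The blastocyst label matched markers that set the tissues apart, with *Cdx2* at 620.6, 820.5 and 950.5 CPM (counts scaled to a common library size) in control, *Lif* eKO and rLif-treated *Lif* eKO, and at most 0.522 CPM in the luminal libraries. *Pou5f1* was at 304.8, 315.8 and 413.2 CPM in blastocysts and had 0 counts in all luminal libraries, whereas the keratin *Krt8* was high in both tissues. The 10 factors summed to 4287.2, 4525.7 and 4269.6 CPM in the blastocyst libraries. In the luminal layer 28 counts of the targeted gene *Lif* were found under the label *Lif* eKO and 0 under each of the labels control and rLif-treated. The paper places *Lif* before attachment in the uterine glands, and the stroma of *Lif* eKO dams kept the gene. These counts therefore neither bear out the labels nor contradict them, and luminal libraries are named by their labels. Counts per gene do not show whether those reads lay in the deleted exons.

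Gene positions below run from the first to the last exon base in GRCm38/mm10. Levels were first ordered within each blastocyst library after division by exon length (CPM per kilobase). In control, *Id2* was highest at 959.6, followed by *Gata3* at 313.9, *Cdx2* at 289.3, *Eomes* at 181.8 and *Tfap2c* at 109.7. *Elf5* (46.4), *Yap1* (31.4), *Tead4* (29.6) and *Tfap2a* (26.0) formed a lower group, and *Hand1* was lowest at 6.99. The intervals of *Yap1* and *Tead4* overlapped in control, while all other neighbours were apart. In *Lif* eKO the intervals of *Gata3* (384.9) and *Cdx2* (382.5) overlapped, as did those of *Tead4* and *Elf5* (both 29.9). In rLif-treated *Lif* eKO all neighbours were apart, *Cdx2* (443.1) stood above *Gata3* (362.5), and *Elf5* (20.7) had moved from the sixth place of the control order to the ninth. *Id2* stayed first, *Eomes* and *Tfap2c* kept places 4 and 5, and *Hand1* was last in all 3 libraries.

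**Figure D1:**
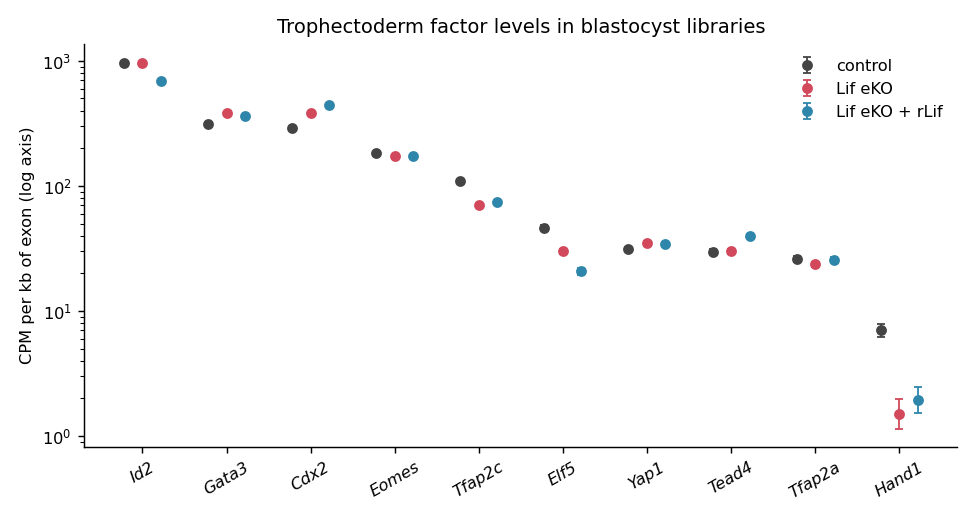
Level of each factor (CPM per kilobase of exon, log axis) in the 3 blastocyst libraries, with 95% counting intervals; genes are ordered by their level. *Id2* ran from 691.3 to 961.2 and *Hand1* from 1.51 to 6.99, and *Hand1* and *Elf5* showed the widest separation between libraries.

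The question put to these libraries was which of the factors differed between blastocysts that had stayed in uteri with and without epithelial Lif, and which differed after Lif was given back. A gene was called higher or lower when the whole interval of its log2 ratio between 2 libraries lay beyond 1, a 2-fold change. Between *Lif* eKO and control, 1 of the 10 factors was called, *Hand1*, which was lower. In the same comparison 468 of 14873 genes were called (3.15%). Between rLif-treated *Lif* eKO and control, *Hand1* and *Elf5* were called, both lower, against 4.94% of all genes. Between rLif-treated and untreated *Lif* eKO no factor was called, against 3.75% of all genes. All 10 factors had at least 300 counts over the 3 libraries, a depth at which the shares of all genes called were 0.535%, 1.88% and 1.11%. The medians of the 10 log2 ratios were -0.03, -0.04 and 0.04 in the 3 comparisons, beside medians of 0.00, -0.01 and -0.01 over all genes. Both comparisons against control share the control library, and both involving untreated *Lif* eKO share that one. A test that assumes a dispersion of 0.1 between replicates (edgeR's exact test) called none of the 10 factors in any blastocyst comparison, beside 65, 124 and 58 genes in all.

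**Figure D2:**
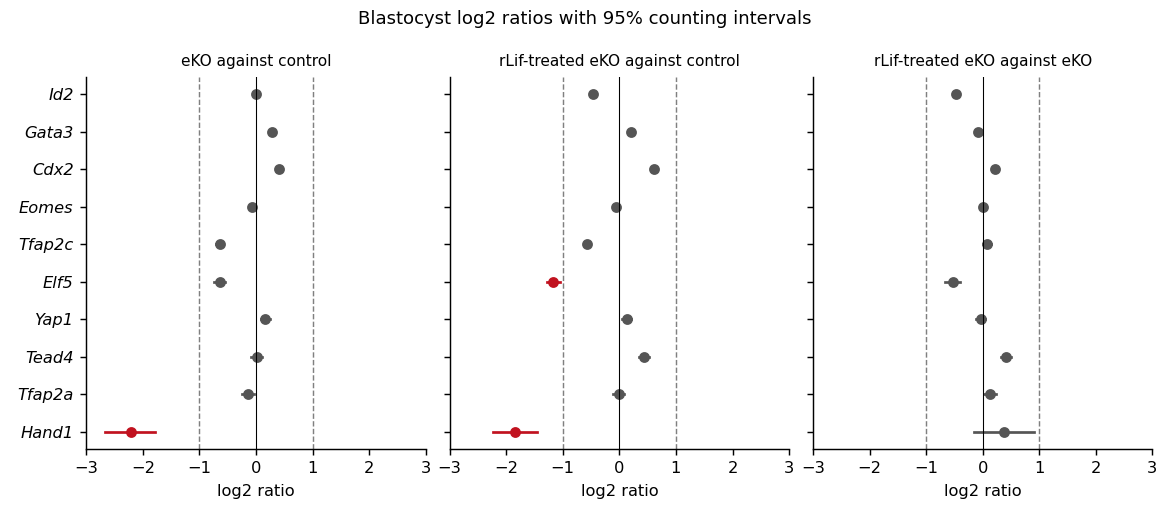
Log2 ratio of each factor between 2 blastocyst libraries, 1 panel per comparison, with 95% counting intervals; dashed lines mark the limit of 1 in either direction and red points are called. *Hand1* (-2.21 and -1.84) and *Elf5* (-1.17) were the called points, and the other 8 factors lay between -0.64 and 0.61 in all panels.

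Smaller differences were common among the factors and among all genes. Summed over the 3 libraries, *Hand1* had 381 counts and each other factor at least 4201. Counting intervals narrow with depth, so the shares of all genes given here are not matched in depth to the factors. The interval left 0 for 8 of 10 factors between *Lif* eKO and control, where it did so for 44.8% of all genes and 50.1% of those with at least 300 counts. Between rLif-treated *Lif* eKO and control it left 0 for 9 of 10 factors, beside 52.9% and 60.7%. Between rLif-treated and untreated *Lif* eKO it did so for 7 of 10, beside 52.7% and 61.5%. The ratio of the highest to the lowest of the 3 libraries had a median of 1.21 over 9715 genes with at least 300 counts. *Hand1* (4.63), *Elf5* (2.25), *Tfap2c* (1.56), *Cdx2* (1.53), *Id2* (1.39), *Tead4* (1.34) and *Gata3* (1.23) exceeded that median, and *Yap1* (1.12), *Tfap2a* (1.10) and *Eomes* (1.05) did not.

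Among the factors that start the lineage, *Tead4* (chr6:128227143-128300813, minus strand) had 1738 counts in control, 1795 in *Lif* eKO and 2380 in rLif-treated *Lif* eKO. Control and *Lif* eKO were close, and the rLif-treated library was the high one, with log2 ratios of 0.43 (0.34 to 0.52) to control and 0.41 (0.33 to 0.50) to *Lif* eKO, within the 2-fold limit. *Yap1* (chr9:7932001-8004596, minus strand), the co-activator of Tead factors, had 2496, 2866 and 2785 counts. Its log2 ratios to control were 0.16 (0.09 to 0.24) in *Lif* eKO and 0.13 (0.05 to 0.21) after rLif. The rLif-treated and untreated libraries differed in *Yap1* by -0.03, with an interval of -0.11 to 0.04 that held 0. Shares within a library do not depend on how libraries are scaled. *Tead4* made up 27.3% (26.2 to 28.4) of the counts of *Tead1* to *Tead4* in control, 28.2% (27.1 to 29.3) in *Lif* eKO and 37.1% (36.0 to 38.3) after rLif. Of the counts of *Yap1* and its paralogue *Wwtr1*, *Yap1* held 46.5%, 49.1% and 45.7%. The *Tead4* share of the rLif-treated library was thus outside the intervals of the others. *Tead3*, which is part of that joint count and so raises the *Tead4* share when it is lower, had 1000, 713 and 442 counts. The *Yap1* shares of control (45.1 to 47.8) and the rLif-treated library (44.5 to 47.0) overlapped within counting error. That of *Lif* eKO (47.9 to 50.4) lay above both.

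*Cdx2* (chr5:147300900-147307249, minus strand), the caudal-type homeobox factor required for the trophectoderm, had 11832 counts in control, 16038 in *Lif* eKO and 18477 in rLif-treated *Lif* eKO. Its log2 ratios were 0.40 (0.37 to 0.44) for *Lif* eKO to control, 0.61 (0.58 to 0.65) for rLif-treated to control and 0.21 (0.18 to 0.24) for rLif-treated to untreated. Control was the low library, and no interval reached the 2-fold limit. *Gata3* (chr2:9857078-9878600, minus strand), a zinc-finger factor that acts in parallel to Cdx2 below Tead4, had 19242, 24188 and 22656 counts. It was also lowest in control, with log2 ratios of 0.29 (0.27 to 0.32) and 0.21 (0.18 to 0.24). The rLif-treated to untreated ratio of *Gata3* was -0.09 (-0.11 to -0.06), a direction that turned to 0.17 when libraries were scaled to trophectoderm epithelium genes. *Eomes* (chr9:118478189-118486132, plus strand), a T-box factor needed for trophoblast growth after the blastocyst stage, had 12879, 12591 and 12584 counts. It varied least of the 10 factors, with log2 ratios of -0.07 (-0.10 to -0.03) and -0.06 to control, the second of which was 0.14 under the trophectoderm scaling, and 0.01 between the rLif-treated and untreated libraries.

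Both lineage-opposing pairs were also compared inside each library. *Cdx2* held 67.1% (66.4 to 67.8) of the joint counts of *Cdx2* and the pluripotency factor *Pou5f1* in control, 72.2% (71.6 to 72.8) in *Lif* eKO and 69.7% (69.1 to 70.3) after rLif. *Gata3* held 89.4% (89.0 to 89.8), 92.0% (91.7 to 92.4) and 86.6% (86.2 to 87.0) of its joint counts with *Nanog*. Both shares were highest in *Lif* eKO, and the rLif-treated library lay above control for the first pair and below it for the second. *Pou5f1* had 5810, 6172 and 8033 counts and *Nanog* 2281, 2094 and 3512, so that the rLif-treated library was the high one for both. Summed over all 10 factors, the share of their joint counts with 14 inner cell mass genes was 43.8%, 43.6% and 41.6%.

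**Figure D3:**
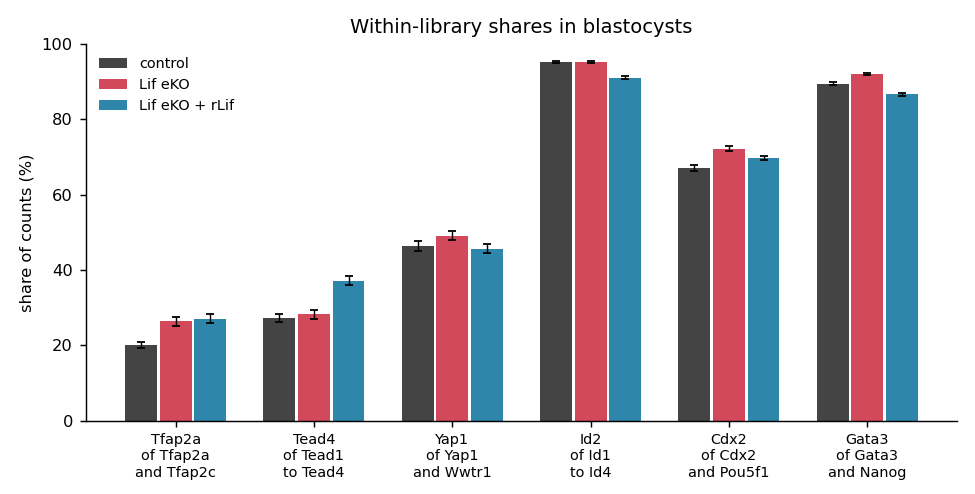
Share of counts (%) that 1 factor takes of a named gene group within each blastocyst library, with bars starting at 0 and 95% counting intervals. The *Tead4* share was 37.1% after rLif beside 27.3% in control, and the *Tfap2a* share 20.1% in control beside 26.4% and 27.0% in the others.

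The AP-2 factors differed from each other. *Tfap2c* (chr2:172549593-172558621, plus strand), which encodes AP-2 gamma, had 6416 counts in control, 4211 in *Lif* eKO and 4412 in rLif-treated *Lif* eKO. Control was the high library, with log2 ratios of -0.64 (-0.70 to -0.59) and -0.57 (-0.62 to -0.51), both short of the 2-fold limit, and the other libraries differed by 0.08 (0.01 to 0.14). *Tfap2a* (chr13:40715675-40733823, minus strand), which encodes AP-2 alpha, had 1619, 1507 and 1635 counts. Its log2 ratios were -0.14 (-0.24 to -0.04) for *Lif* eKO to control and -0.01 (-0.11 to 0.09) for rLif-treated to control, which became 0.18 under the trophectoderm scaling. *Tfap2a* therefore took 20.1% (19.3 to 21.0) of the joint AP-2 counts in control, 26.4% (25.2 to 27.5) in *Lif* eKO and 27.0% (25.9 to 28.2) after rLif, with control apart from the other libraries.

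*Elf5* (chr2:103412098-103450988, plus strand) encodes an Ets-family factor that maintains trophoblast stem cells together with Cdx2 and Eomes. It had 1988 counts in control, 1311 in *Lif* eKO and 902 in rLif-treated *Lif* eKO, or 104.3, 67.1 and 46.4 CPM. Control was highest and the rLif-treated library lowest. The log2 ratio to control was -0.64 (-0.74 to -0.54) in *Lif* eKO and -1.17 (-1.28 to -1.05), a 2.25-fold lower level, after rLif. The rLif-treated library also stood below the untreated one, by -0.53 (-0.66 to -0.41). Scaling to trophectoderm epithelium genes moved the called ratio to -0.97, which ended the call. In this direction 3.99% of all genes were called between the rLif-treated library and control, and 1.66% of those with at least 300 counts.

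*Hand1* (chr11:57828713-57832147, minus strand), the basic helix-loop-helix factor of giant cell differentiation, had the lowest level of the set and the widest difference. It had 253 counts in control, 56 in *Lif* eKO and 72 in rLif-treated *Lif* eKO, or 13.3 CPM (11.7 to 15.0), 2.86 CPM (2.16 to 3.72) and 3.70 CPM (2.90 to 4.66). Control was high, and the intervals of the other libraries overlapped each other. The level was 4.63-fold lower in *Lif* eKO than in control (log2 ratio -2.21, -2.66 to -1.79) and 3.58-fold lower after rLif (-1.84, -2.24 to -1.46). The rLif-treated to untreated ratio was 0.37, with an interval from -0.15 to 0.90. *Hand1* had 0 counts in all 3 luminal libraries, where a floor of 3 counts allows up to 0.119, 0.104 and 0.115 CPM. Of all genes, 1.86% were called lower between *Lif* eKO and control, and 0.443% of those with at least 300 counts.

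*Id2* (chr12:25093799-25096092, minus strand), an inhibitor of basic helix-loop-helix factors and an early mark of outer cells, had 23271 counts in control, 23898 in *Lif* eKO and 17093 in rLif-treated *Lif* eKO. Control and *Lif* eKO had a log2 ratio of 0.00 (-0.02 to 0.03). The rLif-treated library was the low one, by -0.47 (-0.50 to -0.44) to control and -0.48 (-0.50 to -0.45) to *Lif* eKO. *Id2* took 95.2% of the joint counts of *Id1* to *Id4* in control and in *Lif* eKO, and 91.1% (90.7 to 91.5) after rLif. Its relative *Id3*, which is part of that joint count and so lowers the *Id2* share when it is higher, had 1058, 1136 and 1620 counts.

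Genes around the 10 factors were described from lists of the same lineage. For this and the following lists, 1.86% of all genes were called lower between *Lif* eKO and control. The share called lower between rLif-treated *Lif* eKO and control was 3.99%. Between the rLif-treated and untreated libraries 3.75% were called in either direction. Of 18 other trophoblast regulators 15 passed the count minimum. *Dlx3* and *Ascl2* were called lower between *Lif* eKO and control, and *Dlx3*, *Ascl2*, *Ets2* and *Id1* between rLif-treated *Lif* eKO and control. *Ascl2*, a basic helix-loop-helix factor of the ectoplacental lineage, had 335, 53 and 15 counts, with log2 ratios of -2.70 (-3.14 to -2.27) and -4.51 (-5.36 to -3.77) to control. *Ets2*, an Ets-family factor of trophoblast, had 2007, 1453 and 633 counts and was also called between the rLif-treated and untreated libraries (-1.19, -1.33 to -1.06), a call lost under the trophectoderm scaling. The homeobox factor *Dlx3* had 42, 6 and 4 counts, and *Id1* had 98, 57 and 23. These 4 regulators are named because they were called lower than control, as *Elf5* was, so that control above the rLif-treated library was set by that choice. Of the 15 measured regulators, 7 ratios of the rLif-treated library to control lay above 0 and 8 below. The medians of the list were -0.01, -0.07 and -0.17 in the 3 comparisons.

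The trophectoderm epithelium list (keratins, junction proteins, transporters) had all 20 genes measured. *Krt19*, *Cubn* and *Slc2a1* were called lower in both comparisons with control, and the other 17 were called in none. Of all genes, 1.86% and 3.99% were called lower in these comparisons. *Krt19*, a keratin, had 1401, 241 and 108 counts, the endocytic receptor *Cubn* 1587, 469 and 337, and the glucose transporter *Slc2a1* 6133, 2286 and 1648. *Krt8*, the highest of the list in CPM, had log2 ratios of 0.05, 0.04 and -0.01. The medians were 0.01, -0.20 and -0.26, and 18 of 20 ratios lay below 0 between the rLif-treated and untreated libraries with none called.

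Of 12 giant cell and placental genes only 4 passed the minimum, among them *Plac1*, a placental gene, with 3488, 2092 and 699 counts and log2 ratios of -0.77, -2.35 and -1.57, the last 2 called. *Ctsq*, a placental cathepsin, had 11, 1 and 0 counts and met the count minimum only through control. It was called between the rLif-treated library and control, at least 3.74-fold lower against a floor of 3 counts (log2 limit -1.36 with counting error). The direction of that call was set by the count minimum, and *Ctsq* also enters the list medians against control. *Tfpi* (553, 556 and 360 counts) and *Adm* (13, 14 and 5) were not called. The giant cell hormone gene *Prl3d1* had 0 counts in all 3 libraries. The medians were -0.40 and -1.65 over the 4 genes and -1.48 over the 3 that had a ratio between the rLif-treated and untreated libraries, where *Ctsq* had 0 and 1 counts.

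The Hippo pathway and Tead cofactor list had all 21 genes measured, with medians of 0.01, 0.03 and -0.01. *Ankrd1*, a target of Yap1, was called lower between *Lif* eKO and control on 2 counts against 22 (log2 ratio -3.50, -6.63 to -1.47), and had 15 counts after rLif. Another Yap1 target, *Ctgf*, had 274, 137 and 285 counts, and its ratio of -1.04 (-1.34 to -0.73) crossed the limit. *Cyr61*, listed beside these, had a different course with 906, 679 and 566 counts. Its log2 ratios were -0.45 and -0.71 to control and -0.25 between the rLif-treated and untreated libraries, none called. *Tead3* had 1000, 713 and 442 counts and was called lower between the rLif-treated library and control (-1.21, -1.37 to -1.04), also lost under that scaling. *Tead4* and *Tead3* thus had opposite directions in that comparison, while *Tead1* (1788, 1806 and 1704) and *Tead2* (1844, 2056 and 1882) varied little. *Amotl2* (5052, 7491 and 5641), which retains Yap1 outside the nucleus, and *Wwtr1* (2877, 2966 and 3307) had the highest mean CPM of the list over the 3 libraries and were not called.

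Genes of the other blastocyst lineages were measured beside the trophectoderm. None of 14 inner cell mass genes was called in any comparison, and their medians were 0.07, 0.10 and 0.17. The most abundant of them, *Dppa5a*, *Spp1*, *Tfcp2l1* and *Tdgf1*, had 33911, 20635, 13464 and 9410 counts in control. Of 13 primitive endoderm genes none was called between *Lif* eKO and control. Between the rLif-treated library and control *Srgn*, *Sox7* and *Foxa2* were called lower, and between the rLif-treated and untreated libraries *Srgn*, *Sox7* and *Lama1*. *Sox7*, a factor of the endoderm, had 434, 323 and 113 counts, *Foxa2* 103, 61 and 26, *Srgn* 679, 477 and 185, and the laminin chain gene *Lama1* 3274, 4250 and 1658. Other markers of the lineage were not called and did not share a direction. *Gata6* had 3454, 3547 and 5388 counts, *Sox17* 2081, 2233 and 2531, *Pdgfra* 2354, 2845 and 2718, and *Gata4* 1904, 2258 and 1484. Between the rLif-treated library and control 3 of the 13 ratios lay above 0 and 10 below. The medians of that list were 0.00, -0.64 and -0.70, and scaling to trophectoderm genes left 1 of the 3 calls between the rLif-treated and untreated libraries.

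**Figure D4:**
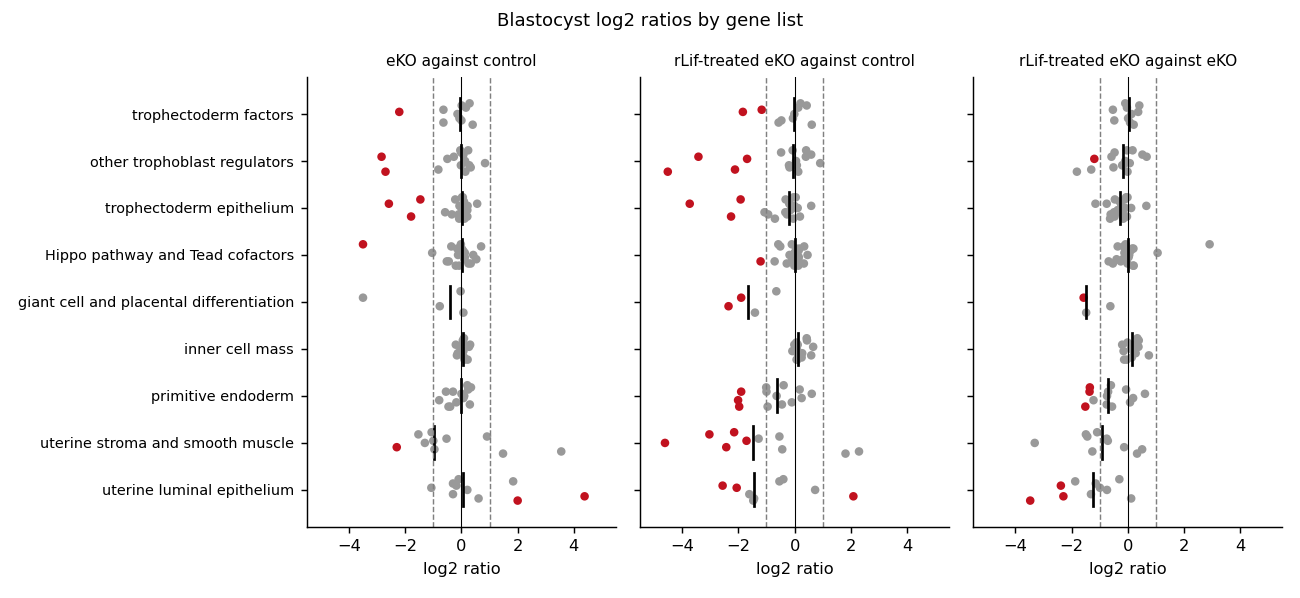
Log2 ratios of the measured genes of each list in the 3 blastocyst comparisons; each point is 1 gene, red points are called, short vertical bars are list medians, and genes with 0 counts in 1 library are drawn at their bound. The trophectoderm factors had medians of -0.03, -0.04 and 0.04, and the primitive endoderm medians were 0.00, -0.64 and -0.70.

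Markers of maternal cells were low in blastocysts and also differed between the libraries. The summed level of 12 uterine stroma and smooth muscle genes was 28.0, 16.1 and 9.77 CPM in control, *Lif* eKO and rLif-treated *Lif* eKO, the same order as *Elf5*. *Hand2* was at 0 in *Lif* eKO and *Acta2* at 0 after rLif. *Col1a2* was called lower between *Lif* eKO and control, and *Col3a1*, *Dcn*, *Col1a2*, *Hoxa10* and *Hoxa11* were called lower between the rLif-treated library and control. The 12 uterine luminal epithelium genes summed to 51.3, 69.4 and 40.1 CPM. *Wnt7a* was at 0 in all 3 libraries, *Lcn2* and *Calb1* were called higher in *Lif* eKO than in control, and *Lcn2* was called higher and *Cyp26a1* and *Ihh* lower after rLif than in control. *Calb1*, *Cyp26a1* and *Lcn2* were called lower in the rLif-treated than in the untreated library. The immune and blood genes summed to 62.4, 124.7 and 22.5 CPM, with most of the sum from *Lyz2* (976, 2128 and 289 counts). The globins *Hba-a1* and *Hba-a2* were at 0 in all 3 blastocyst and all 3 luminal libraries. Whether reads of these globins could be counted was not tested, so their 0 is not read as absence of blood. *Cd52* was called lower in *Lif* eKO than in control, *Lyz2* was called lower after rLif than in control, and *Lyz2*, *Csf1r* and *Itgam* were called lower in the rLif-treated than in the untreated library. The part of such cells in the *Elf5* and list differences was not tested. For *Hand1* the luminal layer held no count, and for *Ascl2* it held 479, 73 and 123 counts in the libraries labelled control, *Lif* eKO and rLif-treated. *Elf5* was at 2.97, 2.65 and 0.192 CPM in these libraries, beside 104.3, 67.1 and 46.4 CPM in blastocysts, which were scaled separately. The 12 stroma and smooth muscle genes summed to 792.0, 1190.2 and 777.0 CPM in the luminal libraries.

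In the luminal layer *Hand1* had 0 counts throughout and *Tfap2a* had 0, 0 and 4, and these were left out by the count minimum. *Cdx2*, *Gata3*, *Eomes*, *Tfap2c*, *Elf5* and *Tead4* had between 0 and 173 counts. *Id2* was the highest, with 10128, 37613 and 6092 counts under the labels control, *Lif* eKO and rLif-treated, or 401.2, 1309.7 and 234.0 CPM. Per kilobase the library labelled *Lif* eKO had 1029.6 CPM of *Id2*, beside 691.3 to 961.2 in blastocysts, which were scaled separately. *Yap1*, which epithelia also use, followed with 1052, 547 and 820 counts.

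**Figure D5:**
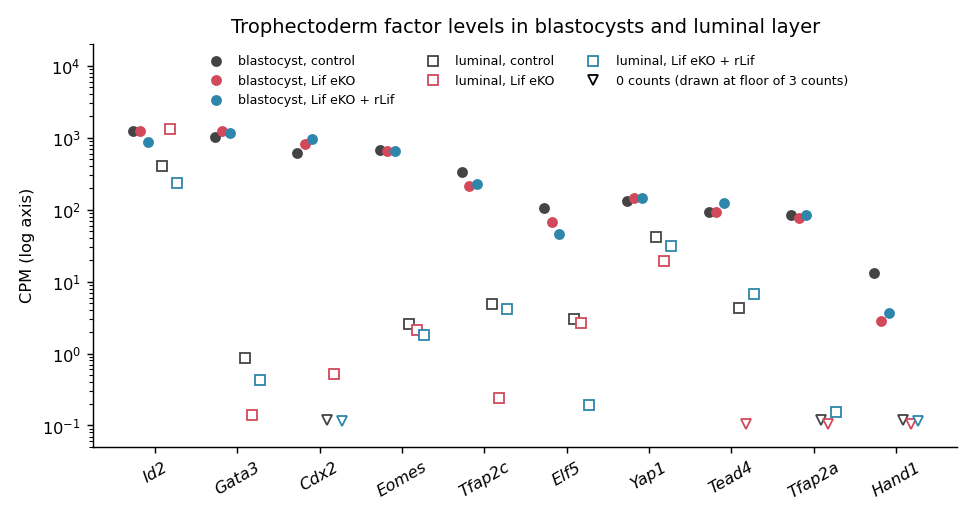
Level (CPM, log axis) of each factor in the blastocyst (filled circles) and luminal (open squares) libraries, with triangles at the floor of 3 counts for libraries with 0 counts; the tissues were scaled separately. *Id2* reached 1309.7 CPM in the luminal library labelled *Lif* eKO, and *Hand1* was at 0 in all 3 luminal libraries.

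Between the luminal libraries labelled *Lif* eKO and control, 5 of the 8 measured factors were called, where 17.2% of all genes were. *Id2* was higher (log2 ratio 1.71, 1.68 to 1.74) and *Cdx2* (0 and 15 counts) was at least 4.40-fold higher against the floor of 3 counts, with a log2 limit of 1.66 once the counting error of the 15 counts is included. *Tead4* (107 and 0 counts) was at least 40.6-fold lower against that floor, with a log2 limit of -5.02. *Tfap2c* (124 and 7 counts) was 20.2-fold lower and *Gata3* (22 and 4 counts) 6.26-fold lower. The *Yap1* ratio of -1.13 (-1.28 to -0.98) did not lie wholly beyond the limit, and *Eomes* (65 and 60 counts) and *Elf5* (75 and 76 counts) were not called. These luminal ratios of *Tead4* and *Tfap2c* were wider than that of any factor in blastocysts, on far fewer counts.

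Between the libraries labelled rLif-treated and control, *Elf5* alone was called (5 counts against 75, log2 ratio -3.95, -5.62 to -2.67), where 9.16% of all genes were. *Tead4* (173 and 107 counts) and *Tfap2c* (107 and 124 counts) were not called there. Between the libraries labelled rLif-treated and *Lif* eKO 5 factors were called, where 15.6% of all genes were. *Tead4* was at least 63.6-fold higher against the floor (log2 limit 5.68) and *Tfap2c* 16.9-fold higher, and *Id2* (5.60-fold), *Elf5* (13.8-fold) and *Cdx2* (at least 4.53-fold, log2 limit -1.70) were lower in the rLif-treated one. For *Tfap2c*, *Tead4*, *Id2* and *Cdx2* the called directions were opposite in the comparisons to and from the library labelled *Lif* eKO, which both comparisons share. For *Cdx2* both calls were set by the count minimum, which it met only through that library. In blastocysts *Tfap2c* was also lower in count in *Lif* eKO than in control, but the rLif-treated blastocyst library lay beside the untreated one.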

How the data were processed

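RNA-seq was performed on 3 blastocyst and 3 uterine luminal libraries, 1 per group, made by the authors with a SMART-seq v4 kit from pooled blastocysts or pooled RNA. Per the labels and the submitters' processing notes, reads were aligned to GRCm38/mm10 with HISAT2 and counted per gene with featureCounts (Subread 2.0.0). Strand, multi-mapping and annotation settings are not given in the sources used here. The deposited values are read counts, 1 table per tissue. The study's methods describe RPKM, but every value was a whole number and totals varied from library to library, so they were analysed as counts. The number of value columns not assigned to a sample was 0.

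A gene entered the comparisons of a tissue when its 3 libraries together held 10 or more counts, which left 14873 genes in blastocysts and 15694 in the luminal layer. TMM factors (edgeR 4.0.16 under R 4.3.3) set the library sizes within a tissue. Ratios carry Clopper-Pearson and levels Poisson 95% intervals (Python 3.11.15, SciPy 1.17.1), where 0 counts were replaced by a floor of 3 for bounds. A gene was called when the whole interval lay beyond a log2 ratio of 1, which compares 2 libraries, not conditions. One library per group allows no estimate of the spread, and no p-value is given. Lists other than the 10 factors are represented by their called genes, or up to 4 of their most abundant. Added after their values were seen were *Pou5f1*, *Nanog*, *Ctgf*, *Cyr61*, *Tead1*, *Tead2*, *Id3*, *Prl3d1*, *Gata6*, *Gata4*, *Sox17* and *Pdgfra*. Members and lists were chosen with earlier results of these data known, so no count over a list is independent evidence. None of the 10 factors had exons overlapping another gene of the tables, and GENCODE M21 gives all 10 as protein coding. Other scalings (total counts, DESeq2 1.42.0 size factors, upper quartile, trophectoderm epithelium genes), count minimums, limits and an exact test at an assumed dispersion were tried. The procedure was tested on simulated data that held counting error only, so that test does not cover the spread between libraries. Promoter windows came from RefSeq.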

Additional observations from a re-analysis of the deposited data

How the results depend on the processing

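Total counts, DESeq2 size factors and upper-quartile scaling kept all 30 blastocyst ratios of the 10 factors within their counting intervals, and with a minimum of 1 count no count of called factors or genes changed by over 1.5 times. Scaling to 20 trophectoderm epithelium genes shifted the median log2 ratio of all genes by 0.197 (rLif-treated *Lif* eKO to control) and 0.259 (rLif-treated to untreated) and moved 18 of the 30 ratios. It left 1 factor called, *Hand1*, in the first of these, gave medians over the factors of 0.16 and 0.30, turned *Yap1* (rLif-treated to untreated) from -0.03 to 0.23 beside the turns of *Eomes*, *Tfap2a* and *Gata3* given above, and put 32.5% and 47.7% of all calls on the higher side instead of 19.2% and 24.4%. Luminal total-count scaling shifted the median by -0.177 and -0.108 and put 29.9% of calls between the libraries labelled rLif-treated and control on the higher side instead of 45.0%.

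In the order *Lif* eKO to control, rLif-treated to control and rLif-treated to untreated, blastocyst genes called were 209, 447 and 325 at a minimum of 50 counts, 52, 183 and 108 at a minimum of 300 (chosen after seeing the data), 6667, 7865 and 7832 at a limit of 0, 1094, 1654 and 1526 at a limit of 0.5, and 65, 124 and 58 by edgeR's exact test at an assumed dispersion of 0.1. Factors called were 8, 9 and 7 at a limit of 0. At a limit of 0.5 they were 3 (*Hand1*, *Elf5*, *Tfap2c*, all lower), 4 (the same and *Cdx2*, higher) and 0. By the exact test they were 0 in all 3 comparisons. Luminal genes called were 11724, 10384 and 11212 at a limit of 0, 5646, 3703 and 4885 at 0.5, 1601, 650 and 1411 at a minimum of 300, and 1250, 342 and 1109 by the exact test. Luminal factors called were 3 in the first comparison at a minimum of 50 and 3 by the exact test, 1, 0 and 1 at a minimum of 300, and 4 and 2 in the second comparison at limits of 0 and 0.5. Without division by length 13 of 30 ranks changed, and all 21 blastocyst shares moved when computed per kilobase. The cause of these changes was not tested beyond what the limits and minimums themselves set.

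No paired analysis was possible because each group had 1 library, and leaving out a replicate was not possible for the same reason. Depth limits *Hand1* in blastocysts, where intervals of the *Lif* eKO and rLif-treated libraries overlapped, and *Cdx2*, *Gata3*, *Tfap2a* and *Hand1* in the luminal layer, where a difference under the floor was not detectable. Pooled libraries leave the spread between dams unknown.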

Other observations

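The luminal library labelled *Lif* eKO held counts of several genes that the luminal libraries labelled control and rLif-treated nearly lacked, chosen here after their values were seen. *Cdx2* had 15 counts there and 0 in both others. *Dppa5a*, an abundant blastocyst gene, had 55 counts beside 0 and 0, *Dppa1* had 23 beside 0 and 2, and *Gata6* had 21 beside 3 and 3. The embryonic genes *Pou5f1*, *Nanog*, *Zfp42* and *Fgf4* had 0 counts in all 3 luminal libraries. In the 3 blastocyst libraries *Dppa5a* had between 33911 and 37599 counts and *Cdx2* between 11832 and 18477.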
